A study of Mus musculus with 3 samples.

Results

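The Hox gene clusters were followed through the H3K4me1 enriched regions of cytokine treated mouse islets. The genes were taken by name and position, not by their signal: 38 of the 39 annotated Hox genes on the 4 clusters (Hoxa on chromosome 6, Hoxb on 11, Hoxc on 15 and Hoxd on 2; mm9) among 22350 protein-coding genes. Regions were taken if they overlapped one of these genes, lay within 2 kb of one of their start sites, or lay in a cluster or within 100 kb of it. This gave 65 regions of the 65650 on chromosomes 1 to 19 and X, 43 inside the clusters and 22 in the flanks. Of these, 35 overlapped a Hox gene and 36 lay within 2 kb of a Hox start site.

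The study asked how proinflammatory cytokines change chromatin and transcription in pancreatic islets. The single library analysed here came, per its labels, from islets of CD1 mice aged 8 to 12 weeks (the methods name ICR mice and a narrower age range), cultured 4 days in RPMI with TNFα at 0.16 ng/ml, IL-1β at 0.25 ng/ml and IFNγ at 1.6 ng/ml, and joined the DNA of 4 separate ChIPs from pooled mice. Untreated islets were not analysed here, so no value is an effect of the cytokines, and with 1 library no value has a replicate error or a test. The list gives the position of each region on a grid of 200 bp and no read count, height or score, so the depth is unknown and a gene without a region is only a gene without a listed region.

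Hox genes encode homeodomain transcription factors that set position along the head to tail axis of the embryo, and they lie in each cluster in the order of their domains of expression. In cells that do not use them, Polycomb complexes hold the clusters under H3K27me3, while Trithorax group methyltransferases act at H3K4. H3K4me1 marks active and poised enhancers and the borders of promoters, and in the Hox clusters long-range enhancers are known in the gene deserts on either side.

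Promoters from both ends of the range are shown first, because CpG content was a feature that most regions inside the clusters shared. Each line gives the 250 bases before a RefSeq start (GRCm38.p6), read in the direction of transcription, with every CpG in capitals; each stretch was found once in mm9. The first 4 are all the Hox promoters that lay wholly inside a region, and the last 3 are those farthest from one.
Hoxa3, chr6:52163067-52163316, minus strand: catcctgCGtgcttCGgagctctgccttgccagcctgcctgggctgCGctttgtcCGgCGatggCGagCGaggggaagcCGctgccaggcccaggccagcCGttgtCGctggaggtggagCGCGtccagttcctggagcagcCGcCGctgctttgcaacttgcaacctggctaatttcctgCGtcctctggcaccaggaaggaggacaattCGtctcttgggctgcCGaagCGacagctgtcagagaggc
Hoxa13, chr6:52210875-52211124, minus strand: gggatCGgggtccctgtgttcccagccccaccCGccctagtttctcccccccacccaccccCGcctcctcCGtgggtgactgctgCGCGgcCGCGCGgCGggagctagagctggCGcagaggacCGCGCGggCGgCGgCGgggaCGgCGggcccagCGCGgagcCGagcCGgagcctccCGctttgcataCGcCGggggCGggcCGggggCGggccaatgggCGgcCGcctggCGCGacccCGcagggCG
Hoxd11, chr2:74520130-74520379, plus strand: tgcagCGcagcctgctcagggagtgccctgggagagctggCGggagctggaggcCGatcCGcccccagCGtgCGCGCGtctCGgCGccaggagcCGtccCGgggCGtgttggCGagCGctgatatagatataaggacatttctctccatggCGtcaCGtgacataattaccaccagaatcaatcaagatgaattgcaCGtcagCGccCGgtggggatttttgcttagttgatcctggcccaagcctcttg
Hoxd13, chr2:74506032-74506281, plus strand: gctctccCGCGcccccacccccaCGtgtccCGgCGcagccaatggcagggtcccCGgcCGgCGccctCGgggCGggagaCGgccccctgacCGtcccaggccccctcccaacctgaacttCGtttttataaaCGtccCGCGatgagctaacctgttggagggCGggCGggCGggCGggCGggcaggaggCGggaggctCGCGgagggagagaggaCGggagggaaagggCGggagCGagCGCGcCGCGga
Hoxa9, chr6:52177370-52177619, minus strand: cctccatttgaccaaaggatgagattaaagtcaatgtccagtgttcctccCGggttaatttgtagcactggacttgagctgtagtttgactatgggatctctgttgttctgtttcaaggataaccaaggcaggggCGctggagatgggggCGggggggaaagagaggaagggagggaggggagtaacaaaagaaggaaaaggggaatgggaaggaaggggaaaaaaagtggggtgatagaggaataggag
Hoxd10, chr2:74529698-74529947, plus strand: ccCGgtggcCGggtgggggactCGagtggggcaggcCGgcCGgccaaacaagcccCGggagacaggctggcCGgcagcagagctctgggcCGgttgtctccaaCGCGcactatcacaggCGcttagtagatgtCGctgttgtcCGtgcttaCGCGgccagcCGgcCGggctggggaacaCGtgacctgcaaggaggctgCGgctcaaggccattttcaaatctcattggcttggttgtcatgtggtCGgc
Hoxd4, chr2:74559785-74560034, plus strand: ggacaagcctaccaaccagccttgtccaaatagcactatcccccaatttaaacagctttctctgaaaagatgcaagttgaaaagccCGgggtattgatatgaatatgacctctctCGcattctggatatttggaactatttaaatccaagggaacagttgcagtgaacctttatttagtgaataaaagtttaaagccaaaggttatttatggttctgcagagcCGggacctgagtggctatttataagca
The covered stretches held 18 CpG at Hoxa3, 35 at Hoxa13, 20 at Hoxd11 and 31 at Hoxd13. Hoxa9 and Hoxd4 had 3 CpG each and lay 5169 bp and 9635 bp from the nearest region; both have other annotated start sites that are nearer to one. CpG number did not by itself sort the promoters. That of Hoxd10 had 20 CpG and was 5853 bp from a region, that of Hoxa6 had 24 and was uncovered, as was a promoter of Hoxa10 with 20, while that of Hoxd3 had 12 and was 99.6% covered.

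Of 22 Hox genes with 24 RefSeq promoters, 4 promoters were wholly covered, 4 partly and 16 not at all. The 8 covered in whole or part held a median of 22 CpG (12 to 35) and the 16 uncovered 7.5 (2 to 24), so that the ranges overlapped. The 24 together held a median of 12.5, against 6 over all promoters of the table. A sequence of the form TGATNNAT, the letters of a joint Hox and Pbx site, was looked for on both strands of the sequence from 250 bases before to 50 after the start. It stood in 4 of the 24 Hox promoters (16.7%) and in 2906 of 32851 promoters in all (8.85%). A match gives the letters only, not a bound site.

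Most Hox genes carried an H3K4me1 region close to a start site in these islets. At least 1 start site lay inside a region for 18 of 38 genes (47.4%), against 39.1% of all protein-coding genes. A region came within 2 kb of a start site for 31 of 38 (81.6%), against 62.0%, and 29 (76.3%) were overlapped by a region anywhere along the gene, against 64.5%. The median distance from a start site to a region was 38.5 bp for Hox genes and 563 bp over all protein-coding genes. Hox genes are short, with a median length of 4082.5 bp against 15427.5 bp, and a median of 14.6% of their length was covered against 4.76%. Both sets had a median of 2 start sites.

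These shares depended on how start sites were counted. Counting the most upstream start site of each gene alone, 12 of 38 Hox genes (31.6%) were covered, beside 31.1% of all genes. Among genes with 1 annotated start site, 4 of 17 Hox genes (23.5%) were covered, beside 22.9%. A region within 2 kb remained more frequent at Hox genes in both counts, at 76.3% against 58.8% for the most upstream start site and 64.7% against 42.6% for genes with 1 start site. In these counts the gap to all genes was in regions near the start site and not in regions over it. When regions narrower than 1000 bp were set aside, 22 Hox genes (57.9%) kept a region within 2 kb, beside 53.4% of all genes, so that most of this gap rested on narrow regions. With the same limit, 21 Hox genes (55.3%) were overlapped by a region, beside 57.0%, and the direction turned. Where a region within 200 bp also counted as covering a start site, 22 Hox genes (57.9%) were covered, beside 43.1%. With the start sites of protein-coding transcripts only, 14 Hox genes (36.8%) were covered, beside 36.2%. A region within 2 kb was then found at 30 (78.9%), beside 61.1%.

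**Figure D1:**
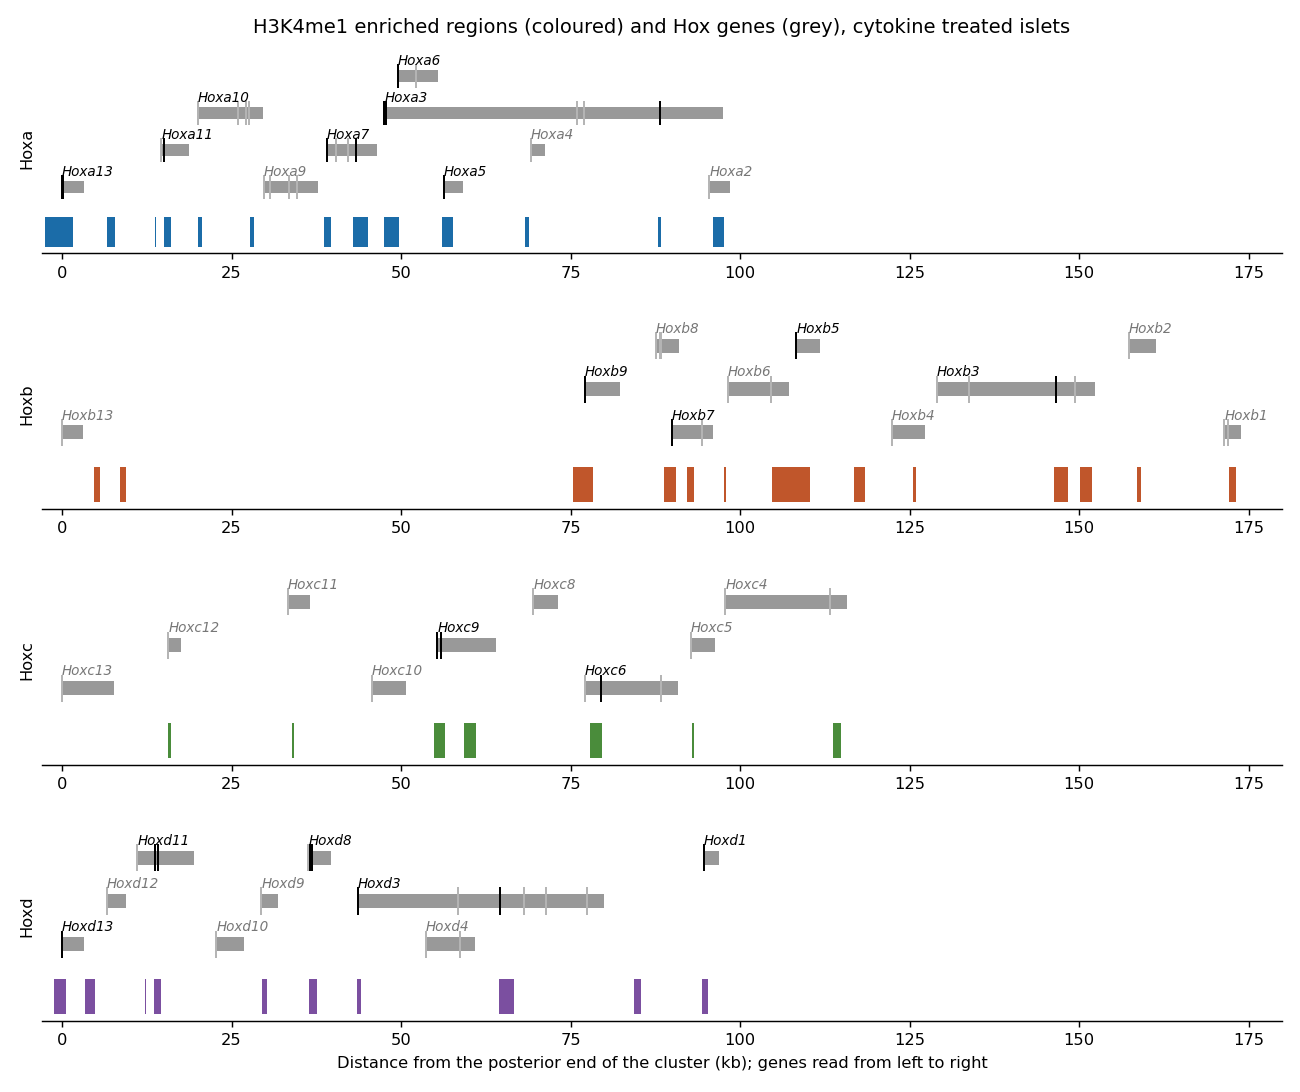
H3K4me1 enriched regions (coloured blocks) and Hox genes (grey bars, vertical ticks at start sites, black where a region covers one) along each cluster, in kb from the end of the posterior genes. Regions were spread along Hoxa and covered 15.1% of it, the interval between Hoxb13 and Hoxb9 was bare over 66 kb, and Hoxc held only 7 regions.

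The 4 clusters were not marked alike, and their counts are to be read beside 62.0% of all protein-coding genes within 2 kb and 39.1% covered. Hoxa, from Hoxa13 to Hoxa2 at chr6:52112350-52210874, had a region within 2 kb of all 10 genes and over a start site of 7. Its 13 regions covered 14.9 kb of 98.5 kb, or 15.1%, beside 5.04% of chromosome 6. Of the 7 covered genes, Hoxa6, Hoxa10 and Hoxa11 were covered only at the start of a transcript not annotated as protein-coding. The protein-coding start site of Hoxa6 was 2480 bp from a region, beyond the 2 kb limit. Hoxd, at chr2:74506367-74603200, had 10 regions over 10.2% of 96.8 kb, beside 6.44% of chromosome 2, with 7 of 9 genes within 2 kb and 5 covered.

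Hoxb and Hoxc had fewer regions per Mb and a smaller share of covered genes than Hoxa and Hoxd. The covered share in Hoxb and the share within 2 kb in Hoxc were near those of all protein-coding genes. Hoxb, at chr11:96055630-96229570, had 13 regions over 12.0% of 174 kb, beside 8.94% of chromosome 11, with 8 of 10 genes within 2 kb and 4 covered. Hoxc, at chr15:102751534-102867274, had 7 regions over 6.57% of 116 kb, which was close to the 6.29% of chromosome 15, with 6 of 9 genes within 2 kb and 2 covered. Regions were nonetheless packed more closely in Hoxc than along its chromosome, at 60.5 against 27.5 per Mb, and none there was wider than 1800 bp. The corresponding densities were 132 against 24.2 per Mb in Hoxa, 103 against 29.1 in Hoxd and 74.7 against 35.9 in Hoxb. Over the 4 clusters together, 53.1 kb of 485 kb (10.9%) was covered, against 5.29% of the genome and 9.81% of the combined span of all protein-coding genes. The covered share of the clusters was thus near that of genes in general, while the number of regions per Mb was 88.7 against 24.9 in the genome. Regions per Mb were not counted over gene spans, so these 2 comparisons have different backgrounds.

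The anterior genes, paralogue groups 1 to 3, pattern the hindbrain and pharyngeal arches. All 7 had a region within 2 kb and 4 had a covered start site. In group 3, Hoxa3, which is needed for the thymus and parathyroid, had 4 of its 6 start sites covered. A region of 400 bp lay over 1 of these, and the other 3, the starts of long transcripts that run over Hoxa4 to Hoxa6, shared the region at Hoxa6. Hoxb3 had 1 of 4 and Hoxd3 had 2 of 6 covered, so that every gene of this group was covered. The covered start of Hoxb3 was that of a transcript not annotated as protein-coding. The nearest of its protein-coding start sites was 718 bp from a region. Hoxd1 was covered at its single start site by a region of 800 bp.

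The other anterior genes had the region inside the gene, just downstream of the start site. Hoxa2, which specifies the second pharyngeal arch, had a region of 1600 bp that began 612 bp downstream of its start and spread over 52.2% of the gene. From the RefSeq start of Hoxa2 the same region was 30 bp away. Hoxb1, a determinant of the fourth rhombomere, had a region 229 bp downstream of its nearest start. Hoxb2 had a region of 600 bp at 1255 bp downstream.

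Among the central genes, groups 4 to 8, which act in the neck and trunk, 12 of 15 had a region within 2 kb and 7 were covered. Hoxa5, which is needed for lung and trachea, was covered by a region of 1600 bp over 48.9% of the gene. Hoxb5 lay under the widest region of all 4 clusters, 5600 bp at chr11:96160401-96166000, which covered its start site and 59.3% of its length. The same region lay over the coding sequence of Hoxb6 and began 132 bp downstream of a start site of that gene, so that the values of these 2 neighbours are not separate observations.

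Both genes of group 7 were covered, Hoxa7 at 3 of 5 start sites by a pair of regions and Hoxb7 at 1 of 2. The region over the Hoxb7 start site, chr11:96144401-96146200, also lay over coding sequence of Hoxb8 and was 362 bp downstream of a Hoxb8 start site. Hoxa6 was covered at 1 of 2 start sites by chr6:52161201-52163400, the only region that covered start sites of 2 Hox genes, the other being Hoxa3. Hoxc6 had 1 of 3 start sites covered and Hoxd8 had 2 of 3. Hoxc5 had a region of 400 bp at 155 bp downstream.

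No gene of group 4 had a covered start site. Hoxa4 had a region 249 bp upstream and Hoxc4 one 375 bp downstream. Hoxb4, known for expanding blood stem cells, was the gene just outside the 2 kb limit, with a region of 400 bp that started 3203 bp downstream, over its coding sequence. From its RefSeq start the same region was 1620 bp away, which is inside the limit. Hoxd4 was 5670 bp from a region. In group 8, Hoxc8 lay 8348 bp from a region.

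Among the posterior genes, groups 9 to 13, which pattern the lumbar to caudal trunk, limbs and urogenital tract, 12 of 16 had a region within 2 kb and 7 were covered. Hoxa13, required for the hands, feet and genital tubercle, had all 3 start sites under the widest region of its cluster, 4200 bp at chr6:52209201-52213400. Hoxd13, which acts in the digits with Hoxa13, was covered by a region of 1800 bp that crossed the end of the cluster. The other genes of group 13 differed from these. Hoxb13, which acts in the prostate and tail bud, was 4771 bp from a region, and Hoxc13, which acts in hair and nails, was 15667 bp from one, the greatest distance of all 38 genes.

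In groups 11 and 12, Hoxa11 and Hoxd11, which form the forearm and the kidney, had 1 of 2 and 2 of 3 start sites covered. Hoxc11 had a region of 400 bp at 543 bp downstream, and Hoxc12 one of 400 bp at 13 bp downstream, the shortest distance of any gene not covered. Hoxd12 was the gene just inside the 2 kb limit, with a region 1786 bp upstream and none over the gene. Neither gene of group 12 was therefore covered, though both passed the 2 kb limit.

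In groups 9 and 10, Hoxa10, which acts in the uterus, had 1 of 5 start sites covered by a region of 600 bp. Hoxc10 lay 9174 bp and Hoxd10 lay 6654 bp from a region. Hoxb9 had both start sites under a region of 3000 bp and Hoxc9 had both under one of 1600 bp. Hoxd9 had a region 64 bp downstream, and its RefSeq start lay inside that region. Hoxa9, which acts in blood progenitors, had 4 start sites and none covered, with a region 1513 bp upstream of the nearest. All 4 genes of group 9 were thus within 2 kb of a region, against 1 of 3 in group 10.

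**Figure D2:**
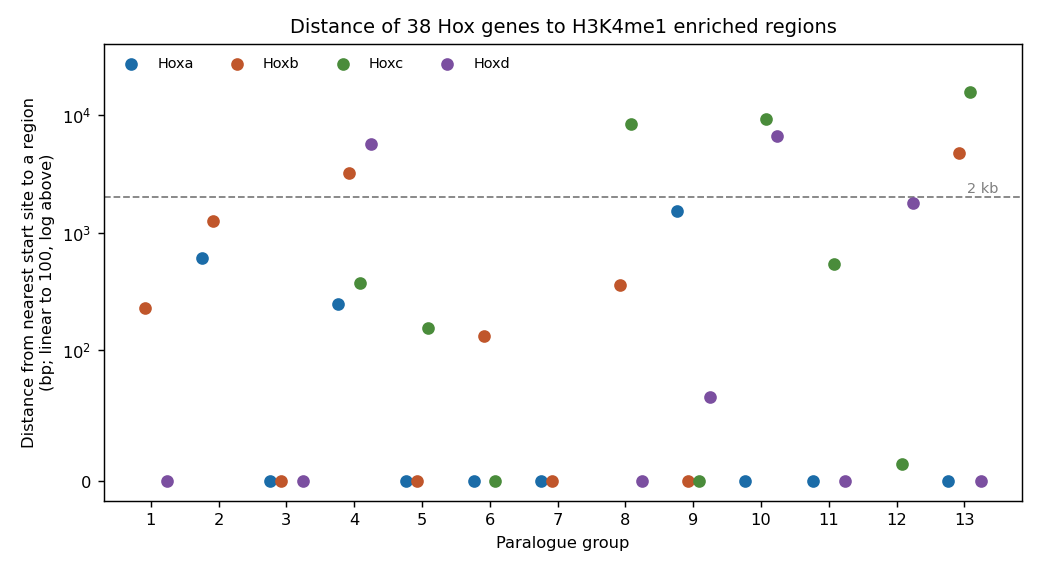
Distance in bp (linear to 100, log above) from the nearest start site of each of the 38 Hox genes to a region, by paralogue group, with a dashed line at 2 kb. The 18 genes at 0 have a covered start site, and the 7 above the line reach from 3203 bp (Hoxb4) to 15667 bp (Hoxc13), with no Hoxa gene among them. Start sites of every annotated transcript count, and the protein-coding one of Hoxa6 was 2480 bp from a region.

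The shares were highest among the anterior genes, of which there are only 7. Genes overlapped by a region made up 7 of 7 anterior, 12 of 15 central and 10 of 16 posterior genes. Those with a region within 2 kb were 7 of 7, 12 of 15 and 12 of 16, and covered genes were 4 of 7, 7 of 15 and 7 of 16, to be read beside 64.5%, 62.0% and 39.1% of all protein-coding genes. Median distances did not follow this order, at 0 bp, 132 bp and 38.5 bp. Covered and uncovered genes were interspersed within each cluster. Neighbouring genes can share a region, so these counts are not of independent genes, and the order was not tested.

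Where a Hox start site was not covered, the region tended to lie downstream. Of the 13 genes within 2 kb but not covered, the region was downstream of the nearest start site for 10 and upstream for 3 (Hoxa4, Hoxa9 and Hoxd12). Counted over single start sites, 30 of 82 Hox start sites (36.6%) were covered, beside 31.5% of 69932 start sites of all protein-coding genes. A region on the downstream side alone was found at 21 Hox start sites (25.6%), beside 11.5%. A region on the upstream side alone was found at 8 (9.76%), beside 6.95%. Regions on both sides of an uncovered start site were found at 2 Hox start sites (2.44%), beside 10.3%, and no region within 2 kb at 21 (25.6%), beside 39.8%.

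The average profile showed the same one-sided form. In the first kb downstream of Hox start sites 41.2% of the sequence was covered, against 31.8% for all protein-coding start sites. In the first kb upstream it was 21.8% against 29.4%. Between 1 and 2 kb downstream the Hox value had fallen to 25.7% against 30.8%, and between 2 and 5 kb downstream to 11.6% against 19.4%. Between 5 and 10 kb it was 12.97% against 13.68% downstream and 10.3% against 11.1% upstream, with single steps above and below the curve of all start sites. On average over these windows, coverage at Hox start sites was hence higher in the first kb on the transcribed side and lower from 1 to 2 kb and from 2 to 5 kb, though single steps there also lay above the curve of all start sites, and the start sites of 1 gene, and of neighbours, share regions.

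**Figure D3:**
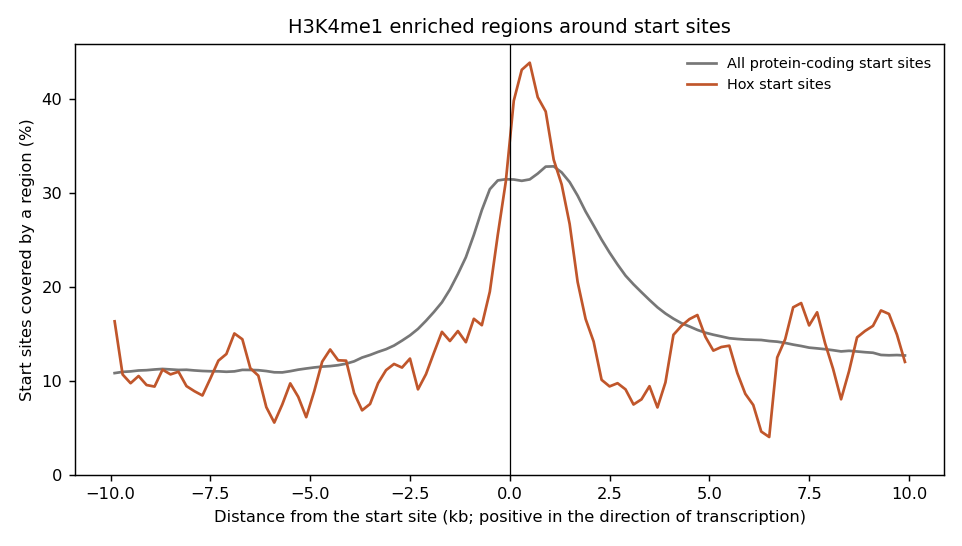
Share of start sites (%) covered by a region in steps of 200 bp from 10 kb upstream to 10 kb downstream, for 82 Hox start sites and for 69932 start sites of protein-coding genes. The Hox curve averages 41.2% over the first kb downstream and 21.8% over the first kb upstream, where all start sites average 31.8% and 29.4%.

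The regions lay over coding sequence more than regions elsewhere did. Of the 43 inside the clusters, 28 (65.1%) overlapped a coding exon of a Hox gene, whereas 12769 of all regions (19.5%) overlapped a coding exon of any gene. Of the rest, 5 touched only the non-coding part of an exon, 2 an intron only, and 8 lay between Hox genes. A Hox start site was covered by 20 of the 43. Hox genes are compact, with coding exons close to the start, and exon density was not matched in this count.

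Regions at the Hox clusters were narrow. Their median width was 1000 bp (quartiles 600 to 1800, range 200 to 5600), against 1200 bp (600 to 2400, 200 to 85400) over all regions. Those at least 3 kb wide were 3 of 43 (6.98%), against 20.2%: the regions of Hoxb6 to Hoxb5 and of Hoxa13, and one of 3000 bp at Hoxb9. The difference was larger over start sites. Regions over a Hox start site had a median width of 1700 bp, against 2400 bp for all regions over a protein-coding start site, and 3 of 20 reached 3 kb, against 41.5%. Among genes with a region within 2 kb, the length covered within 2 kb of start sites had a median of 1389 bp for Hox genes (quartiles 700 to 2012) and 1861 bp for all (1069 to 2800). In Hoxc the widest regions were of 1800 bp, at chr15:102810801-102812600 over Hoxc9 and at Hoxc6, and in Hoxd the widest was 2200 bp at chr2:74570801-74573000 over a start site of Hoxd3.

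**Figure D4:**
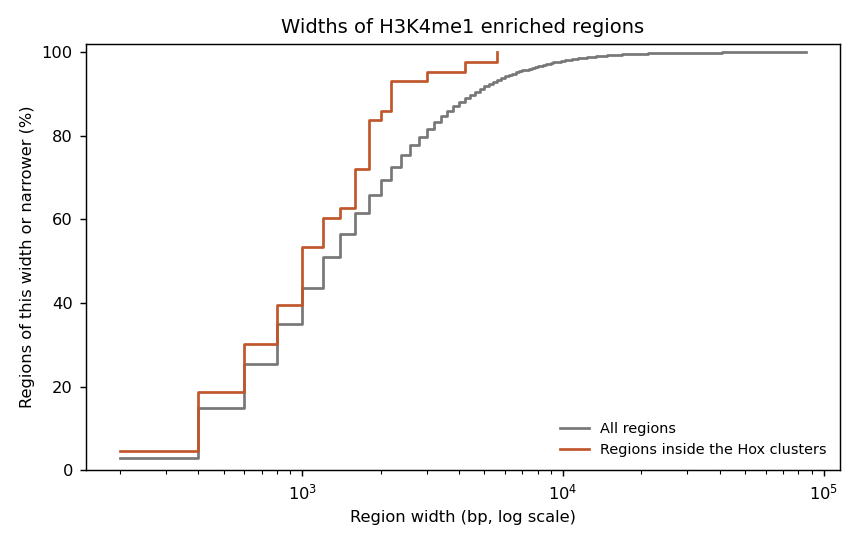
Cumulative share (%) of regions by width (bp, log scale) for the 43 regions inside the Hox clusters and for all 65650 regions. The Hox curve lies above the other beyond 1 kb, ends at 5600 bp and has 6.98% of its regions at 3 kb or wider, against 20.2%.

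The sequence under the regions was rich in CpG. The ratio of observed to expected CpG, which is the number of CpG relative to that given by the C and G content, had a median of 0.675 (quartiles 0.585 to 0.859) over the 43 regions inside the clusters, against 0.226 (0.160 to 0.327) over all regions. GC content had a median of 57.8% against 45.9%. Of the 43, 41 lay above the upper quartile of all regions. Regions over Hox start sites had a median ratio of 0.681, against 0.447 for all regions over a protein-coding start site. The 22 regions over no annotated start site had 0.668, against 0.211 for all such regions. Many of these regions lay close to a start site without holding one, and distance was not matched in this count.

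Within the clusters, covered sequence also differed from uncovered sequence. Covered sequence had a ratio of 0.711 and a GC content of 58.2%, and uncovered sequence had 0.343 and 48.2%. The ratio was higher in covered sequence in each cluster, at 0.728 against 0.413 in Hoxa, 0.628 against 0.295 in Hoxb, 0.638 against 0.327 in Hoxc and 0.883 against 0.376 in Hoxd. Of the 82 Hox start sites 30 fell within covered sequence, and their part in this difference was not tested.

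**Figure D5:**
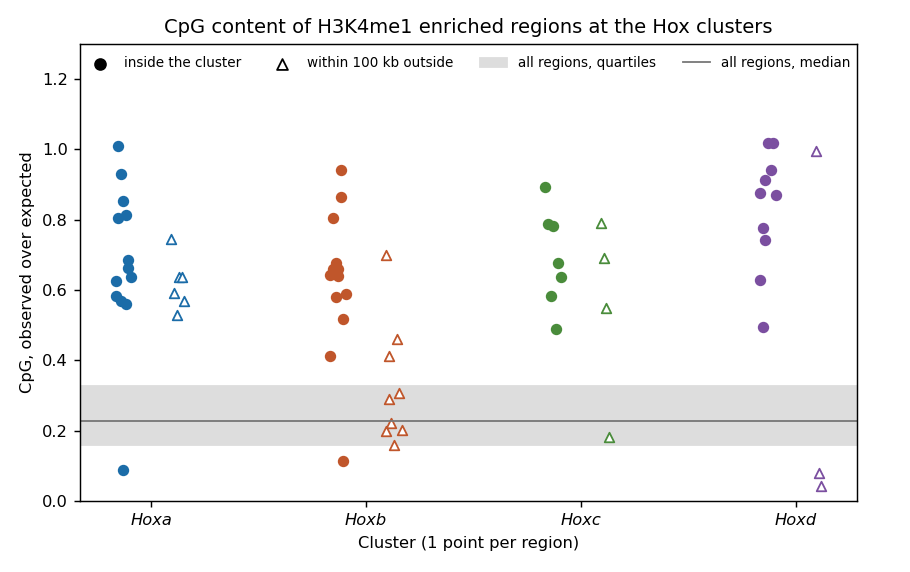
Ratio of observed to expected CpG for each region inside a cluster (filled circles) and within 100 kb outside (open triangles), with the median (line) and quartiles (grey band) of all regions. Of 43 regions inside, 41 lie above the band, against 13 of 22 outside.

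Regions of a single bin of 200 bp are the narrowest the list can hold, and 2 lay inside the clusters. Their mm9 sequences are given on the plus strand with CpG in capitals, because these narrow regions differed widely in CpG content.
chr2:74518601-74518800: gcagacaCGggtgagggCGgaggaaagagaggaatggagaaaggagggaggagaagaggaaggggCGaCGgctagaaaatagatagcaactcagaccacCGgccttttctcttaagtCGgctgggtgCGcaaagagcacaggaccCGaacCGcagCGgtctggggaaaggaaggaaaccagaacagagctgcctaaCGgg
chr6:52197001-52197200: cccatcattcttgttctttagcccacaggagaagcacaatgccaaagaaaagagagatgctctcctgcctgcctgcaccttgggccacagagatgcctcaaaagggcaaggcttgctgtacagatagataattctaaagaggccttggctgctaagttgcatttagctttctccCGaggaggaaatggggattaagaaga
The first lay in an intron of Hoxd11 and had a ratio of 0.742, above the median of the regions inside the clusters. The second lay between Hoxa11 and Hoxa13, inside the gene of the antisense RNA Hoxa11as, and had a ratio of 0.0870, the lowest inside the clusters. The other region inside a cluster that did not exceed the upper quartile of all regions, at 0.113, was chr11:96153201-96153600 between Hoxb7 and Hoxb6.

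The noncoding genes of the clusters were counted by type. Between the first and last Hox genes 27 other genes are annotated, and 11 were overlapped by a region. All 5 lincRNAs were overlapped (Gm15050, 2700086A05Rik, Hoxa11as, Gm11538 and 1700109F18Rik), beside 73.0% of all lincRNA genes. Of 11 processed transcripts 6 were (0610040B09Rik, Gm11536, Hoxb3os, Gm20398, 6720416L17Rik and Gm14424), beside 43.7%. None of the 6 microRNA genes was overlapped, beside 10.9% of all microRNA genes, which are short. Neither were the 2 pseudogenes, beside 3.98%, nor the 3 other protein-coding genes, beside 64.5%. With so few genes of each type, these counts are not read as a difference from the genome. Several of the long transcripts run through Hox genes and antisense to them, and a region over both cannot be given to either.

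The 6 microRNA genes of the clusters make products of the miR-10 and miR-196 families, which target Hox transcripts, and miR-615. The mature sequences, from RefSeq (GRCm38.p6) with the seed (bases 2 to 8) in capitals, are shown because family members in different clusters share a seed.
mmu-miR-10a-5p: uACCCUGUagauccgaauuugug
mmu-miR-10b-5p: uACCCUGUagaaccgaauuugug
mmu-miR-196a-5p: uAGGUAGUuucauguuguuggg
mmu-miR-196b-5p: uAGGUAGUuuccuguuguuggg
mmu-miR-615-5p: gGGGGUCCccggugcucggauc
Of the miR-10 pair, Mir10a in Hoxb lay 2613 bp and Mir10b in Hoxd 6607 bp from a region. Mir196b in Hoxa lay 2437 bp, Mir196a-2 in Hoxc 2520 bp and Mir196a-1 in Hoxb 4422 bp from one. Mir615, in an intron of Hoxc5, was the nearest at 541 bp, from the 400 bp region over the first exon of its host. No gene of either seed family had a region over it.

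The flanks were less densely marked than the clusters. The 800 kb on both sides of the 4 clusters had 22 regions, or 27.5 per Mb, and 3.82% of this sequence was covered (regions that cross the end of a cluster included), against 24.9 per Mb and 5.29% in the genome. CpG content was intermediate, with a median ratio of 0.494, and 13 of 22 regions lay above the upper quartile of all regions. Their median width was 800 bp.

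The sides of a cluster differed. Beyond Hoxa13 there were 5 regions, the nearest 9.73 kb away and the widest, 3800 bp at chr6:52263401-52267200, over the start site of the homeobox gene Evx1. Beyond Hoxa2 there was 1, at 3.55 kb. Beyond Hoxb1 there were 6, the nearest at chr11:96229601-96230800, 31 bp past the end of the gene. Beyond Hoxb13 there were 3, the nearest 52.4 kb away in Ttll6.

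In the other clusters, the flank beyond Hoxc4 had 4 regions, the nearest 24.7 kb away, and that beyond Hoxc13 had none, the nearest region lying 168 kb off. Of the Hoxd flanks, which are known for the limb enhancers in their gene deserts, the side of Hoxd13 had 1 region, 12.0 kb away in Evx2 at chr2:74493601-74494400. The side of Hoxd1 had 2, the nearest 70.6 kb away, both in Mtx2. These last 2 had the lowest CpG ratios of all 65 regions, 0.0411 and 0.0786.

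Other homeobox genes and partners of Hox proteins were counted in the same way, to be read beside the 39.1% of all protein-coding genes with a covered start site and the 62.0% with a region within 2 kb. Of 12 Irx and Dlx genes, which also lie in clusters or pairs, 9 had a covered start site and 11 a region within 2 kb, the exception being Irx4 at 2656 bp. All 9 TALE cofactors (the Pbx, Meis and Pknox genes, whose products bind DNA with Hox proteins) had a region within 2 kb and 4 were covered. All 6 retinoid receptor genes, whose products regulate Hox genes in the embryo, were covered. Of 8 ParaHox and Evx genes 4 were covered and 5 lay within 2 kb, the others being Cdx1 at 21.9 kb, Cdx4 at 32.5 kb and Evx2 at 3076 bp. In 3 of these 4 small lists, a region within 2 kb was at least as frequent as among the Hox genes, and in the ParaHox and Evx list it was near the share of all genes.

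Marker genes of the cell types that an islet preparation can hold were counted as a check of the tissue. Of 12 islet endocrine genes 9 had a region within 2 kb and 3 a covered start site, among them Ins2, while Gcg, Sst and Isl1 lay 21.9 kb, 7.27 kb and 2105 bp from a region. Of 8 mesenchymal or stromal genes 5 had a region within 2 kb and 4 were covered (not Col3a1, Pdgfrb and Tcf21 within 2 kb). Of 4 endothelial genes 3 were covered (not Cdh5). Of 6 exocrine genes 2, the duct genes Krt19 and Sox9, were covered, and Ptf1a, Cpa1, Cela1 and Prss1 had no region within 2 kb. Among leukocyte genes, Cd68 was covered, and Ptprc, Csf1r, Itgam and Cd3e had none within 2 kb. Against the 62.0% of all protein-coding genes with a region within 2 kb, the endocrine and endothelial shares were higher, the stromal share was near and the exocrine share was lower, as it was among the leukocyte genes named. Against the 39.1% covered, the stromal and endothelial shares were higher and the endocrine and exocrine shares and that of the leukocyte genes named were lower. These lists are small, and which cells carried the Hox regions was not tested.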

How the data were processed

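H3K4me1 ChIP-seq of cytokine treated islets was analysed, 1 library. Per the study's methods, the authors mapped reads to mm9 with Bowtie2 (2.2.1 in the submitters' processing notes), pooled the DNA of 4 ChIPs and called enriched regions with ChromHMM (version not given in the sources used here). The deposited list holds positions only, the chromosome, start and end of each region, all on a grid of 200 bp, and no other unit. Read depth and the settings of the calling are unknown. The methods describe a later filter that removed loci of very low signal, and whether the list precedes it is not stated.

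Regions were compared with GENCODE M1 genes (mm9) in Python 3.11.15 with numpy 2.4.6, and plots were made with matplotlib 3.10.9. A start site is that of any annotated transcript of a gene. A gene counted as covered if a region held a start site. Records of Hoxa3 were merged, and its long transcripts run over Hoxa4, Hoxa5 and Hoxa6. Of the 39 annotated Hox genes 1 is not reported here, nor is 1 leukocyte marker, and cluster limits run from the first to the last base of the 38. Expected CpG is the product of C and G counts over the length. The counting was tested on simulated data.

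Each of the 38 genes was accounted for, and genes were named by whether a region covered a start site, lay within 2 kb or lay beyond it. Members, gene lists and counts were chosen with earlier results of these data known, and the counts by side of the start site, the profile, the CpG content and the width classes were chosen last. With 1 library and no counts no test was made, and shares are given beside those of all protein-coding genes. Alternatives changed the width limit, joined regions across gaps, and changed the start sites, distances, overlap, cluster limits and flanks.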

Additional observations from a re-analysis of the deposited data

How the results depend on the processing

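Of 39 alternative values for 9 results, 35 stayed within a factor of 1.5 of the main value. The other 4 were counts of regions. With regions of at least 1000 bp, 26 lay inside the clusters instead of 43 and 10 in the flanks instead of 22. Flanks of 50 kb held 10 regions and flanks of 200 kb held 50, where the construction itself changes the sequence searched. Within that factor, genes with a covered start site numbered 12 with the most upstream start site alone and 14 with protein-coding transcripts alone, instead of 18, and 22 where a region within 200 bp counted as covering. The counts of 12 and 14 (31.6% and 36.8%) lay close to the shares of all protein-coding genes, 31.1% and 36.2%. No paired analysis was possible because only 1 library was analysed, and no replicate could be left out. Depth is unknown, so it was not possible to say which genes lack a region for want of reads.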
